A study of Homo sapiens with 6 samples.

Results

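The DNA replication machinery was followed in Huh7 cells through 45 genes, found by name among 27394 gene names in all. They were chosen by function, from the G1/S regulators through origin licensing, the replicative helicase, the polymerases and their clamp, to nucleotide supply. Huh7 is a human hepatocellular carcinoma line. Of the 6 libraries, 3 came from Huh7 cells carrying a short hairpin RNA (shRNA) against CTSV, which encodes the lysosomal protease cathepsin V, labelled as a CTSV knockdown. They were set against 3 from Huh7 cells with a control shRNA, labelled WT. Both groups thus carried an shRNA, and both were grown in DMEM with serum. The number of hairpins or clones behind each group, and the target of the control hairpin, are unknown here. The labels do not tie the 3 replicates to separate cultures, so every p-value weighs a difference against library-to-library spread only, and that spread may be technical.

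Replication starts at origins that are bound by the origin recognition complex (ORC) and loaded in G1, through CDC6 and CDT1, with the ring-shaped MCM2-7 helicase. At S-phase entry CDC45 and GINS join the ring to make the active helicase, polymerase alpha-primase lays down primers, and polymerases epsilon and delta extend them on the sliding clamp PCNA. Most of these genes are known targets of the E2F transcription factors, which are held back by the RB family until cyclin D and cyclin E kinases act. Their mRNA levels are therefore commonly read as a sign of cycling cells, and adult hepatocytes, which rarely divide, are known to keep them low.

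The first question was what the start regions of these genes look like, because E2F sites are the feature they are known to share. RefSeq start regions (build GRCh38.p14) were matched for 38 of the 45 genes (not for CCNE2, GINS4, MCM4, MCM5, POLD3, RPA2 and RPA3), and the 250 bases upstream of the first listed start were searched on both strands. The E2F letters searched were TTTCCCGC, TTTCGCGC, TTTGCCGC and TTTGGCGC, and they stood in 14 of the 38 upstream windows (36.8%) against 2.79% of 27305 gene windows. CCAAT, the box bound by NF-Y, stood in 22 of 38 (57.9%) against 33.0% of all, and the GC box GGGCGG in 27 of 38 (71.1%) against 42.3%. The background windows include genes without enough reads to be tested here. Whether these letters are commoner than in other expressed genes was not tested. The windows of 6 genes are shown because the results below turn on them: 3 subunits of 1 helicase that moved differently, the polymerase gene POLE that rose, and POLD2 and TK1, the 2 that fell furthest. Capitals mark E2F letters, CCAAT and GGGCGG on either strand, and all 6 windows are written 5′ to 3′ on the gene's own strand, which is the minus strand in each. MCM6 (chr2:135876444-135876693) holds 4 E2F matches as 2 overlapping pairs, in each of which TTTGGCGC on the gene's strand runs into TTTCGCGC on the other. MCM7 (chr7:100101398-100101647) holds 2, MCM3 (chr6:52284743-52284992) 1 and POLE (chr12:132687343-132687592) 1. POLD2 (chr7:44123549-44123798) and TK1 (chr17:78187205-78187454) hold none of these letters in the window, which says nothing about whether the factor binds there.
MCM6: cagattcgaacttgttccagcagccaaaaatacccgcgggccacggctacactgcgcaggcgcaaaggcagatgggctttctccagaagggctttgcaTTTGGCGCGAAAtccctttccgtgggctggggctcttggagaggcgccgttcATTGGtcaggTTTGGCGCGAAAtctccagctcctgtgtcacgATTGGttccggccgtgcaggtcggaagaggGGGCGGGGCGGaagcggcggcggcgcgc
MCM7: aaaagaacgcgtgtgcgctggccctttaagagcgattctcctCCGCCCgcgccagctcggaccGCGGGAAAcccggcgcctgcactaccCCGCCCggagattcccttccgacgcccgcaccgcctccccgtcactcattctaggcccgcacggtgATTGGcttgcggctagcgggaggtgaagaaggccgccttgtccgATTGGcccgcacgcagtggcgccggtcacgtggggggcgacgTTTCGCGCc
MCM3: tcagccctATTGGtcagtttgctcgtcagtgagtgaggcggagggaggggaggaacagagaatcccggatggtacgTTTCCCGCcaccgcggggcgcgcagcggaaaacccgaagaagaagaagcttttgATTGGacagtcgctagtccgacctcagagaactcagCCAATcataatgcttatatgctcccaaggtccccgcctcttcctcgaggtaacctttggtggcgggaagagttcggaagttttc
POLE: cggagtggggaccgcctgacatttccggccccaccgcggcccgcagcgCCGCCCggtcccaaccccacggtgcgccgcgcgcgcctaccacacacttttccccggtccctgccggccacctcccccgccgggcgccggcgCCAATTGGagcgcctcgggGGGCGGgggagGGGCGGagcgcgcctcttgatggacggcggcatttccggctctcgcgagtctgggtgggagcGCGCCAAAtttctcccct
POLD2: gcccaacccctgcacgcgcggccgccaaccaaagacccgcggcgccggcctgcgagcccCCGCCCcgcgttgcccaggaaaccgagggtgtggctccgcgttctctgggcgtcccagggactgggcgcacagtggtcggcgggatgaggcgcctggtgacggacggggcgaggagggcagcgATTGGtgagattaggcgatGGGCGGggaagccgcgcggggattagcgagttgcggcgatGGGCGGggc
TK1: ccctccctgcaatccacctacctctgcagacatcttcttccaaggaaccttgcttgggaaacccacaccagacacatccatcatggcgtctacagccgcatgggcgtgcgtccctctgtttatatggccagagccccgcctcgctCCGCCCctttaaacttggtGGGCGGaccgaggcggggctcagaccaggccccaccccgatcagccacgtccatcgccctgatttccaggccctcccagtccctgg

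The depth was even, with 16280506 to 17930442 counts in the CTSV shRNA libraries and 16258803 to 18106207 in the control libraries. CTSV itself had 304, 264 and 296 counts in the CTSV shRNA libraries against 755, 740 and 658 in the controls, so the libraries go with their labels. Mitochondrial genes took 11.4% to 11.8% of counts in CTSV shRNA libraries and 9.09% to 9.51% in control libraries. Hepatocyte and hepatoma markers (8 of 8 with values) summed to 40405 to 41534 CPM (counts scaled to library size) in CTSV shRNA libraries and 32147 to 33254 CPM in controls. Most of that sum was ALB, AFP and APOB, with AFP at 226713, 226780 and 241855 counts in CTSV shRNA libraries against 177643, 168664 and 158718 in controls. The list did not move as one, since TTR had 2204, 1970 and 2056 counts in CTSV shRNA libraries against 2516, 2376 and 2122 in controls. Among markers of other cell types, the fibroblast list had values for 3 of 5 genes and summed to 18.9 to 22.7 CPM in CTSV shRNA libraries and 10.3 to 10.8 CPM in controls, nearly all of it COL1A2, with 314, 345 and 319 counts in CTSV shRNA libraries against 181, 145 and 151 in controls. Cholangiocyte markers (2 of 3 with values) summed to 151 to 165 CPM in CTSV shRNA libraries and 158 to 176 CPM in controls, and PECAM1, the 1 endothelial marker of 4 with values, to 17.6 to 19.5 CPM in CTSV shRNA libraries and 16.4 to 21.2 CPM in controls. The macrophage list (1 of 4 with values) and the T and B cell list (4 of 5) stayed at or below 3.06 CPM in every library. The part of these shifts in the results was not tested.

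All 45 replication genes passed the low-count filter, and their mean levels, not scaled for length, ran between 5.26 CPM (CCNE2) and 398 CPM (MCM7). More of them fell than rose. With edgeR's quasi-likelihood test and a call at an adjusted p under 0.05, 19 of 45 (42.2%) fell in the CTSV shRNA libraries and 6 (13.3%) rose, while 20 were not called. Over all 15968 genes tested, 21.6% fell and 18.7% rose, 40.3% in all. Most replication genes are well expressed, and at such levels more genes fell than rose: among the 9440 genes with a mean of 10 CPM or more, 33.4% fell and 19.7% rose, 53.1% in all. Of the 42 replication genes at that level, 19 (45.2%) fell and 5 (11.9%) rose. The number of falls was 15 to 18 with 1 library left out. The number of rises was less stable, at 3 without CTSV shRNA replicate 1, 3 without CTSV shRNA replicate 2, 3 without control replicate 1 and 2 without control replicate 2. The sizes were small, between -0.48 and 0.53 on the log2 scale, and no replication gene changed 2-fold. The median log2 fold change was -0.14 over the 45 genes, against 0.02 over all genes tested. Among genes at 10 CPM or more the medians were -0.16 for replication genes and -0.07 for all. In a bulk library, fewer cells in S phase and less of each mRNA per cell cannot be told apart.

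Summed over the 45 genes, replication transcripts took 0.321%, 0.327% and 0.317% of counts in the CTSV shRNA libraries against 0.339%, 0.345% and 0.344% in the control libraries. The groups did not overlap. With mitochondrial counts left out of the totals, the shares were 0.364%, 0.370% and 0.358% in CTSV shRNA libraries against 0.373%, 0.381% and 0.378% in controls, still apart but closer. Library by library, 24 of the 45 genes were lower in every CTSV shRNA library than in any control library, where 25.0% of all genes tested were, and 6 were higher in every one, where 24.1% of all genes were. At 10 CPM or more, 24 of 42 replication genes were lower in this way, against 37.2% of all genes at that level, and 5 were higher, against 22.7%. The 6 that were higher are the 6 that rose.

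**Figure D1:**
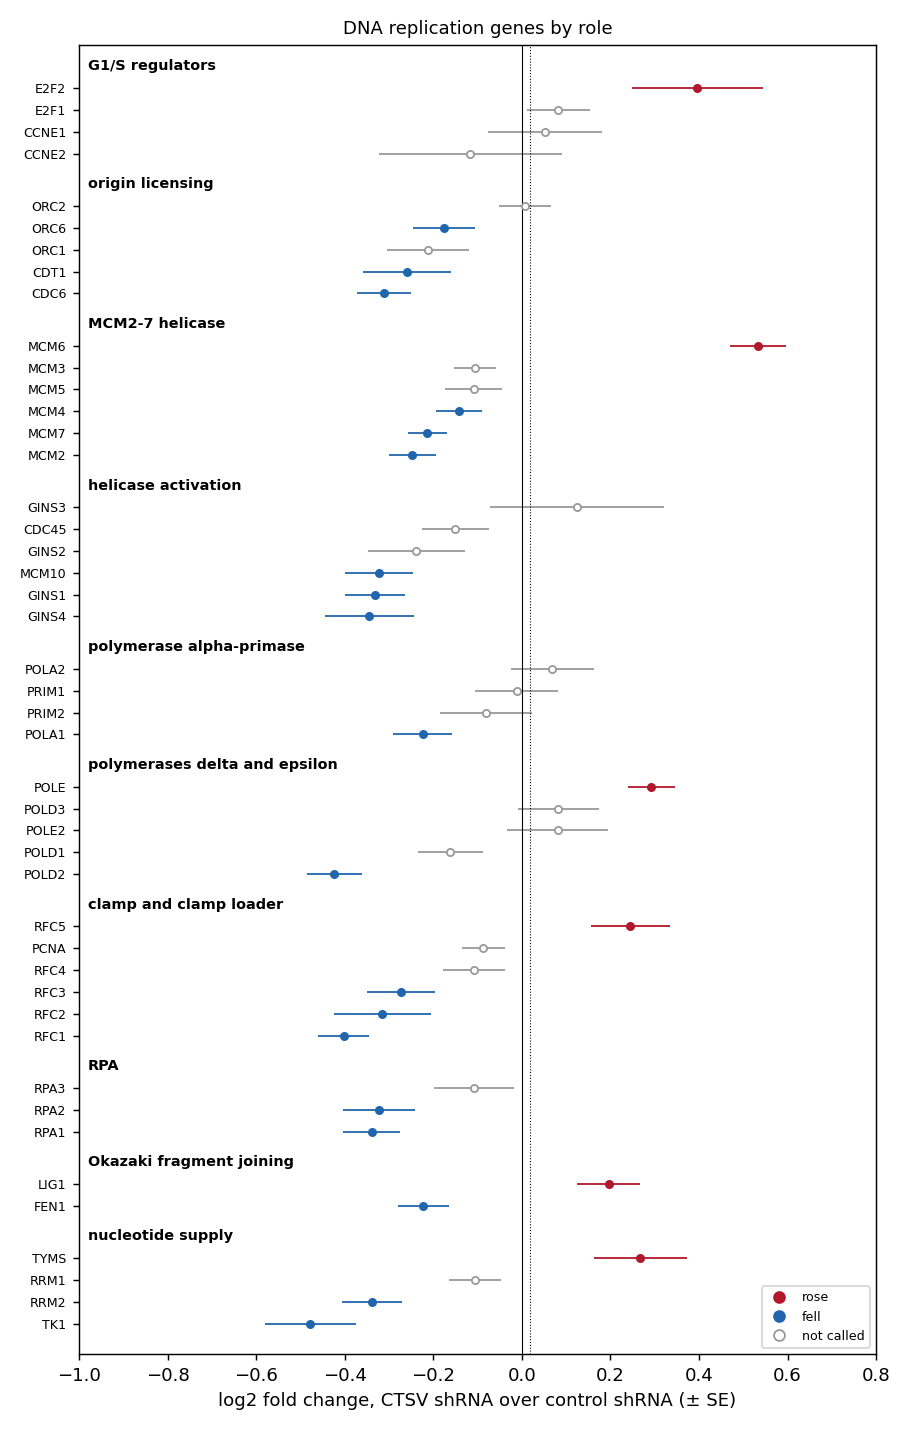
Log2 fold change (x axis, CTSV shRNA over control shRNA, ± SE) of the 45 replication genes, grouped by role, with filled points for genes called at an adjusted p under 0.05 and a dotted line at the median of all genes tested. Falls lie between -0.48 (TK1) and -0.14 (MCM4), and MCM6 stands apart from its 5 fellow helicase subunits at 0.53.

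**Figure D2:**
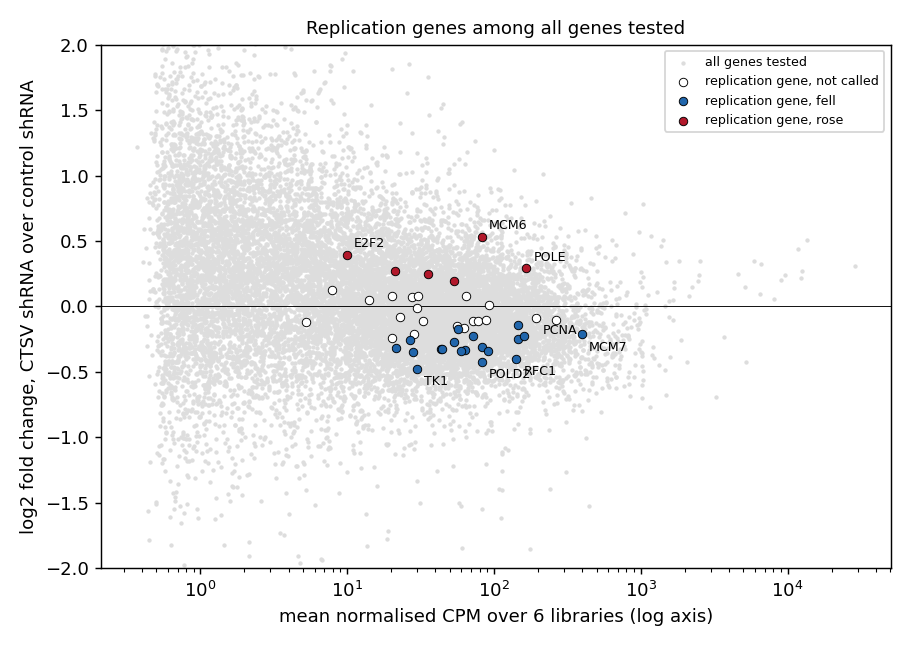
Log2 fold change (y axis) against mean normalised CPM (x axis, log axis) for all genes tested (grey) and the 45 replication genes (outlined: red rose, blue fell, white not called); 73 genes lie beyond the limits of 2 on the y axis. The replication genes sit inside the cloud of genes of like level, with MCM6 and POLE above zero and most others below it.

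Of the calls, 2 rises and 13 falls stood in each of 14 alternative analyses, which changed the normalisation, the filter, the test, the pairing, the length and GC correction or the libraries used. The rises were MCM6 and POLE. The falls were CDC6, MCM2, MCM7, MCM10, GINS1, POLD2, RFC1, RFC3, RPA1, RPA2, FEN1, RRM2 and TK1. The other 10 calls were each lost in at least 1 of the 14.

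**Figure D3:**
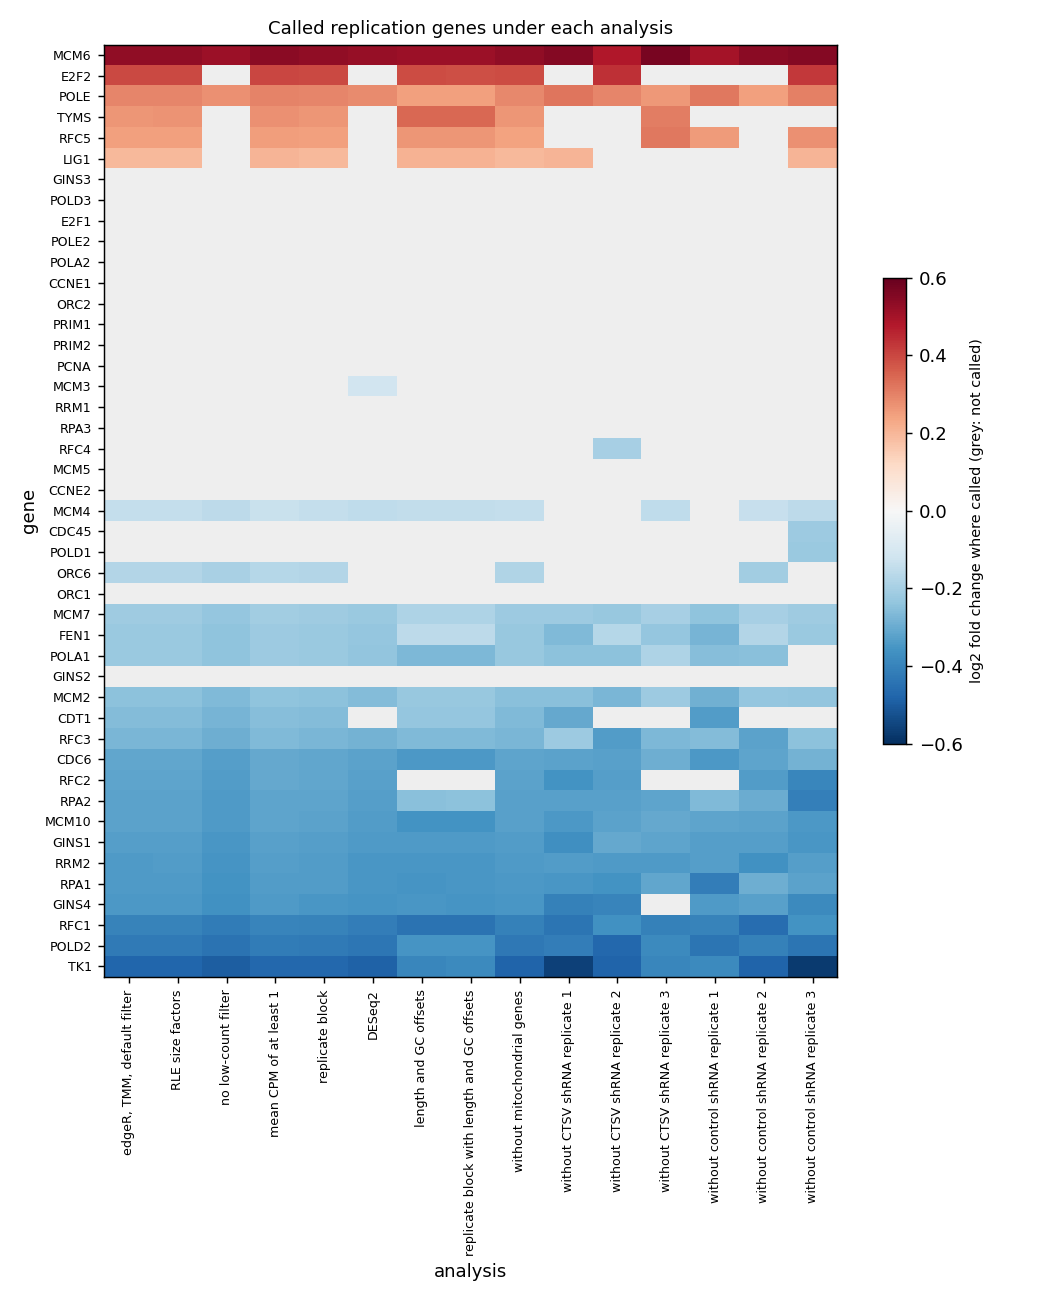
Replication genes (rows, ordered by log2 fold change) under each analysis (columns), coloured by log2 fold change where called and grey where not. The rows of MCM6 and POLE are filled throughout, those of E2F2, TYMS, RFC5 and LIG1 have gaps, and TK1 and POLD2 are the deepest falls.

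Of the G1/S regulators, E2F2 rose and the 3 others were not called. E2F1 and E2F2 are transcription factors that drive replication genes, and CCNE1 and CCNE2 encode the E-type cyclins that activate CDK2. E2F2 was at 12.0, 10.5 and 11.2 CPM in CTSV shRNA libraries, against 8.47, 8.30 and 8.91 CPM in controls. Every CTSV shRNA library was above every control library, a log2 fold change of 0.40 (SE 0.147, edgeR adjusted p = 0.0294). At this low level the call was fragile: it was lost without CTSV shRNA replicate 1 (edgeR adjusted p = 0.107) or 3 (0.0621), without control replicate 1 (0.0681) or 2 (0.0684), without the filter (0.0678) and with DESeq2 (0.0843). E2F1 averaged 66.7 ± 4.45 CPM in CTSV shRNA and 63.0 ± 5.07 CPM in control libraries (SD, n = 3 each), with a log2 fold change of 0.08 (SE 0.0715). The cyclins CCNE1 (0.05, SE 0.129) and CCNE2 (-0.12, SE 0.207) overlapped between groups. For CCNE2, 37.0% of its exon bases are shared with INTS8 on the other strand. Since strand use in counting is not stated, reads there cannot be told apart.

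Origin licensing genes fell or were not called. CDC6, the ATPase that loads MCM2-7 with CDT1, was at 74.7, 75.1 and 72.1 CPM in CTSV shRNA libraries, against 88.0, 91.8 and 95.5 CPM in controls. The groups were well apart, at a log2 fold change of -0.31 (SE 0.0611, edgeR adjusted p = 7.9e-05). CDT1 (-0.26, SE 0.100) and the ORC subunit gene ORC6 (-0.17, SE 0.0703) also fell, with edgeR adjusted p values of 0.0363 and 0.0446. Both are weak calls. CDT1 was not called without CTSV shRNA replicate 2 (edgeR adjusted p = 0.0653) or 3 (0.179), without control replicate 2 (0.158) or 3 (0.0817) or with DESeq2 (0.0698). ORC6 was not called without CTSV shRNA replicates 1, 2 or 3 (edgeR adjusted p = 0.0897, 0.0568 and 0.151), without control replicates 1 or 3 (0.143 and 0.088), with DESeq2 (0.0579) or with length and GC offsets (0.192). ORC1, the largest ORC subunit, lay lower in all 3 CTSV shRNA libraries, with 26.3 ± 0.691 CPM against 30.5 ± 0.864 CPM in controls (SD, n = 3 each), and missed the threshold (-0.21, edgeR adjusted p = 0.0639). ORC2 was level with its controls, at 93.3 ± 2.06 CPM in CTSV shRNA and 92.8 ± 3.76 CPM in control libraries.

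The 6 genes of the MCM2-7 helicase, whose proteins form 1 ring with 1 copy of each, did not move together. MCM6 had the largest rise of all 45 genes, while MCM2, MCM4 and MCM7 fell and MCM3 and MCM5 were not called. MCM6 (ENSG00000076003, minus strand of chromosome 2, 135839626 to 135876426 on hg38) was at 95.3, 105 and 93.0 CPM in CTSV shRNA libraries, against 64.7, 68.3 and 69.3 CPM in controls. The lowest CTSV shRNA library lay far above the highest control library, with a log2 fold change of 0.53 (SE 0.0632, edgeR adjusted p = 1.2e-08), or 44.8% more. MCM7, with the most counts of the 45, had the opposite pattern, with 369, 373 and 362 CPM in CTSV shRNA libraries and 414, 438 and 428 CPM in controls (-0.21, SE 0.0441, edgeR adjusted p = 0.00015). MCM7 shares 8.94% of its exon bases with AP4M1 on the other strand, which was not called (0.13, SE 0.151). MCM2 stood at 135, 139 and 129 CPM in CTSV shRNA libraries and at 152, 164 and 163 CPM in controls (-0.25, SE 0.0535, edgeR adjusted p = 0.00028). MCM4 fell by only 0.14, and this call was lost without CTSV shRNA replicate 1 (edgeR adjusted p = 0.0765) or 2 (0.0817) or control replicate 1 (0.066). MCM3 (-0.10, SE 0.0472) was lower in all 3 CTSV shRNA libraries and was called with DESeq2 (adjusted p = 0.037) but not with edgeR (0.0743). MCM5 (-0.11, SE 0.065) overlapped between the groups.

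Scaled by exon length (TPM), the 6 subunits differed widely in level in both groups. MCM7 led with 283 ± 4.52 TPM in CTSV shRNA and 325 ± 7.39 TPM in control libraries, and MCM5 was lowest with 32.0 ± 1.83 TPM in CTSV shRNA and 34.2 ± 1.12 TPM in control libraries (SD, n = 3 each). MCM6 made up 10.1% ± 0.375 of the summed MCM2-7 level in CTSV shRNA libraries and 6.46% ± 0.127 in controls. By this share it ranked 4 of the 6 in CTSV shRNA libraries and 5 of the 6 in controls, where MCM4 stood above it. That order rests on exon-union lengths (6973 bases for MCM4, 4118 for MCM6). Scaled by longest transcripts (4183 and 3736 bases), MCM4 stands above MCM6 in both groups. The ratio of MCM6 to the mean of the other 5 was 0.557, 0.589 and 0.543 in CTSV shRNA libraries, against 0.338, 0.345 and 0.353 in controls. These shares are a description, with no test, since MCM6 was singled out after its values were seen.

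**Figure D4:**
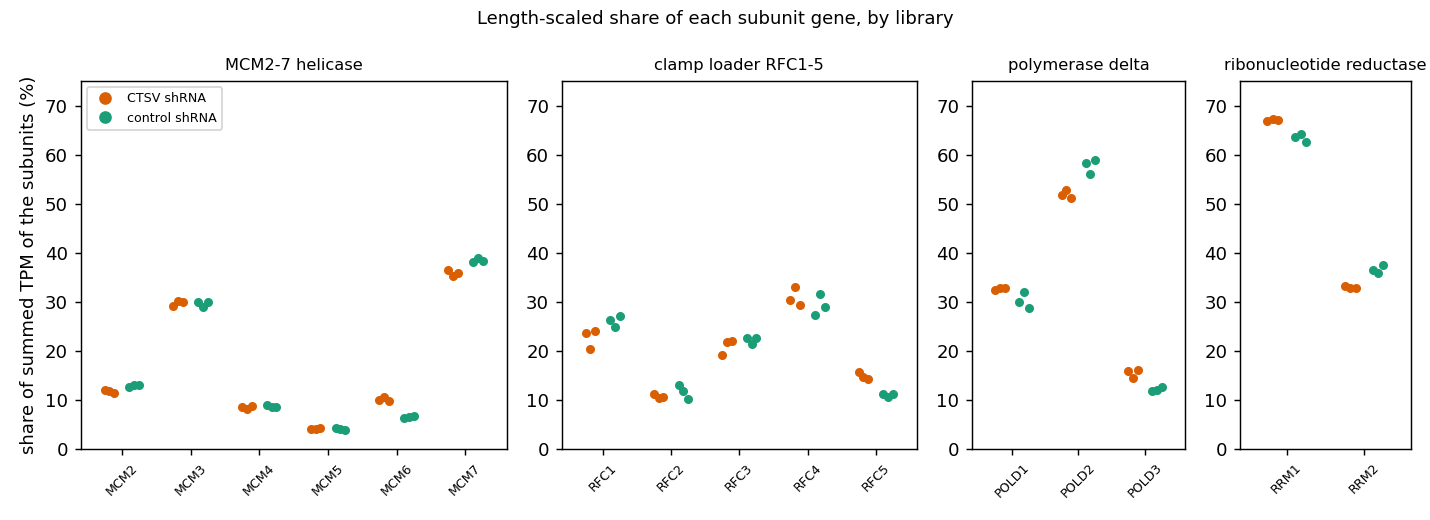
Share of each subunit gene in the summed TPM of its complex (y axis, %), 1 point per library, CTSV shRNA left of control for each gene. The share of MCM6 is 10.1% in CTSV shRNA and 6.46% in control libraries. Those of RFC5, POLD1, POLD3 and RRM1 are also higher, and those of MCM2, MCM7, RFC1, POLD2 and RRM2 are lower. Shares within a complex have a fixed total, so a lower share of a subunit raises others. POLD1, POLD3 and RRM1 were not called.

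Genes that turn the loaded ring into an active helicase fell in 3 of 6 cases, and none rose. Of all genes tested, 21.6% fell and 18.7% rose, and at 10 CPM or more 33.4% fell and 19.7% rose. MCM10, which helps fire the assembled helicase, was at 40.0, 38.7 and 38.1 CPM in CTSV shRNA libraries, against 49.3, 49.2 and 47.5 CPM in controls. GINS1 was at 58.6, 54.0 and 55.1 CPM in CTSV shRNA libraries, against 71.0, 71.0 and 68.9 CPM in controls. Neither gene had overlapping groups, and the log2 fold changes were -0.32 (SE 0.0774, edgeR adjusted p = 0.00091) and -0.33 (SE 0.0674, edgeR adjusted p = 0.00013). GINS4, a second subunit of the 4-part GINS complex, was at 26.6, 26.3 and 21.1 CPM in CTSV shRNA libraries and at 31.7, 32.2 and 29.8 CPM in controls. Its fall (-0.34, SE 0.0998, edgeR adjusted p = 0.0054) leaned on CTSV shRNA replicate 3, the lowest library, without which it was -0.24 and not called (edgeR adjusted p = 0.0796). GINS4 also shares 21.2% of its exon bases with the antisense gene AC009630.2, which was not called (0.55, SE 0.587). GINS2 (-0.24, edgeR adjusted p = 0.08) was lower in all 3 CTSV shRNA libraries without passing the test. GINS3, at 8.21 ± 2.94 CPM in CTSV shRNA and 7.53 ± 1.28 CPM in control libraries (SD, n = 3 each), had overlapping groups. CDC45, the third part of the active helicase, was not called (-0.15, edgeR adjusted p = 0.111) but fell without control replicate 3 (-0.22, edgeR adjusted p = 0.0355).

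The polymerases split between and within enzymes. POLE, the catalytic subunit of polymerase epsilon that copies the leading strand, was at 175, 183 and 191 CPM in CTSV shRNA libraries, against 155, 140.4 and 153 CPM in controls. It rose in each CTSV shRNA library relative to each control, by 0.29 (SE 0.0535, edgeR adjusted p = 3e-05), or 22.5%. Its partner POLE2 had a log2 fold change of 0.08 (SE 0.114) with overlapping groups. The 2 small subunits of the same enzyme, from the wider pathway list, fell instead: POLE3 by 0.43 and POLE4 by 0.62 on the log2 scale (edgeR adjusted p = 9.4e-07 and 0.0017). In polymerase delta, the lagging-strand enzyme, the accessory subunit gene POLD2 was at 69.8, 75.1 and 66.8 CPM in CTSV shRNA libraries, against 93.3, 97.5 and 93.0 CPM in controls. That gap, -0.42 (SE 0.0624, edgeR adjusted p = 8.7e-07), was the second deepest fall of the 45. The catalytic gene POLD1 (-0.16, edgeR adjusted p = 0.0762) was called only without control replicate 3 (-0.22, edgeR adjusted p = 0.0258). POLD3 (0.08, SE 0.0909) was not called. Per length, POLD2 took 51.9% ± 0.827 of the summed level of the 3 delta genes in CTSV shRNA libraries and 57.7% ± 1.46 in controls (SD, n = 3 each).

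Polymerase alpha-primase, which makes the RNA-DNA primers, had 1 called gene of 4, where 53.1% of all genes at 10 CPM or more were called. POLA1, its catalytic subunit, was at 68.2, 68.1 and 63.3 CPM in CTSV shRNA libraries, against 75.1, 75.2 and 82.9 CPM in controls. The groups did not overlap and the log2 fold change was -0.22 (SE 0.0659, edgeR adjusted p = 0.0061), but the call was lost without control replicate 3, the highest library (-0.18, edgeR adjusted p = 0.0543). POLA2 (0.07, SE 0.0935), PRIM1 (-0.01, SE 0.0931) and PRIM2 (-0.08, SE 0.103) each overlapped between groups.

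The clamp itself was not called, while genes of its loader moved in both directions. PCNA, the ring that tethers the polymerases and the gene of highest level per length among the 45, was at 188, 185 and 188 CPM in CTSV shRNA libraries and at 195, 203 and 198 CPM in controls. Each CTSV shRNA library was the lower, yet the difference of -0.09 (SE 0.0488) gave an edgeR adjusted p of 0.157. RFC1, the large subunit of the loader that opens the clamp, was at 128, 115 and 124 CPM in CTSV shRNA libraries, against 163, 150.2 and 172 CPM in controls. It fell by 0.40 (SE 0.057, edgeR adjusted p = 4.3e-07), with a wide gap between the groups. RFC3 (-0.27, edgeR adjusted p = 0.0038) and RFC2 fell as well. RFC2 was at 20.1, 19.4 and 17.7 CPM in CTSV shRNA libraries and at 26.6, 23.2 and 21.2 CPM in controls, a log2 fold change of -0.32 (SE 0.109, edgeR adjusted p = 0.0199). Its call was lost without CTSV shRNA replicate 3 (edgeR adjusted p = 0.0953), without control replicate 1 (0.146) and with length and GC offsets (0.0881). RFC5, another of the 4 small loader subunits, rose, with 41.1, 40.2 and 35.1 CPM in CTSV shRNA libraries and 33.4, 30.6 and 34.1 CPM in controls. The groups were barely apart (0.25, SE 0.0883, edgeR adjusted p = 0.0246), and the call was lost without CTSV shRNA replicate 1 (0.115) or 2 (0.102), without control replicate 2 (0.112), without the filter (0.0523) and with DESeq2 (0.0688). RFC5 shares 5.72% of its exon bases with WSB2 on the other strand, which fell by 0.33. RFC4 (-0.11) was called only without CTSV shRNA replicate 2 (-0.20, edgeR adjusted p = 0.0446).

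Replication protein A, the trimer that coats single-stranded DNA, fell in 2 of its 3 genes, where 33.4% of all genes at 10 CPM or more fell. RPA1 was at 81.1, 81.9 and 77.5 CPM in CTSV shRNA libraries, against 91.2, 109 and 104 CPM in controls (-0.34, SE 0.0639, edgeR adjusted p = 4.5e-05). RPA2 was nearly constant in CTSV shRNA libraries at 39.7, 39.8 and 39.4 CPM, and spread more in controls at 53.7, 51.5 and 43.5 CPM (-0.32, SE 0.0823, edgeR adjusted p = 0.0017). In both genes the groups were apart. RPA1 shares 2.84% of its exon bases with SMYD4 on the other strand, which rose by 0.45. RPA3, the smallest subunit, was not called (-0.11, SE 0.0906).

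The pair that finishes Okazaki fragments moved in opposite directions. FEN1, the flap endonuclease, was at 158, 138 and 152 CPM in CTSV shRNA libraries, against 161, 185 and 175 CPM in controls. It fell by 0.22 (SE 0.0572, edgeR adjusted p = 0.0019), with the highest CTSV shRNA library just under the lowest control. FEN1 shares 6.70% of its exon bases with TMEM258 on the other strand and 1.98% with FADS2, and both of these fell too, by 0.39 and 0.26. LIG1, the ligase that seals the fragments, was at 56.4, 57.7 and 57.2 CPM in CTSV shRNA libraries, against 50.2, 48.6 and 50.8 CPM in controls. Its rise of 0.20 (SE 0.071, edgeR adjusted p = 0.0257) was lost without CTSV shRNA replicate 2 (0.0801) or 3 (0.0617), without control replicate 1 (0.0605) or 2 (0.0787), without the filter (0.0798) and with DESeq2 (0.0583).

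Nucleotide supply also divided. TK1, the thymidine kinase of the salvage route, had the deepest fall of the 45 genes, with 27.9, 25.2 and 22.2 CPM in CTSV shRNA libraries and 39.5, 35.1 and 30.1 CPM in controls. The replicates were spread, but the highest CTSV shRNA library was still below the lowest control (-0.48, SE 0.103, edgeR adjusted p = 0.00027). TK1 thus dropped by 28.2%. RRM2, the small and cycle-regulated subunit of ribonucleotide reductase, was at 52.9, 53.0 and 53.3 CPM in CTSV shRNA libraries, against 68.1, 64.8 and 68.2 CPM in controls. It fell by 0.34 (SE 0.068, edgeR adjusted p = 0.00011), with tight groups far apart. RRM2 shares 20.2% of its exon bases with AC007240.1 on the same strand, which was not called (-0.83, SE 0.448), so how the authors' counting split these reads bears on its value. RRM1, the large subunit, was lower in all 3 CTSV shRNA libraries without passing the test (-0.11, SE 0.0588, edgeR adjusted p = 0.153). The ratio of RRM1 to RRM2 per length was 2.02, 2.05 and 2.04 in CTSV shRNA libraries, against 1.75, 1.79 and 1.67 in controls, a description with no test. TYMS, the thymidylate synthase of the de novo route, was at 23.0, 24.7 and 21.9 CPM in CTSV shRNA libraries, against 19.7, 19.4 and 18.6 CPM in controls. The groups were apart (0.27, SE 0.105, edgeR adjusted p = 0.0403), but the call is uncertain. TYMS shares 39.1% of its exon bases with ENOSF1 on the other strand, which rose by 0.39. The TYMS call was also lost without CTSV shRNA replicate 1 (edgeR adjusted p = 0.074) or 2 (0.162), without control replicates 1, 2 or 3 (0.0658, 0.0703 and 0.114), without the filter (0.102) and with DESeq2 (0.103).

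**Figure D5:**
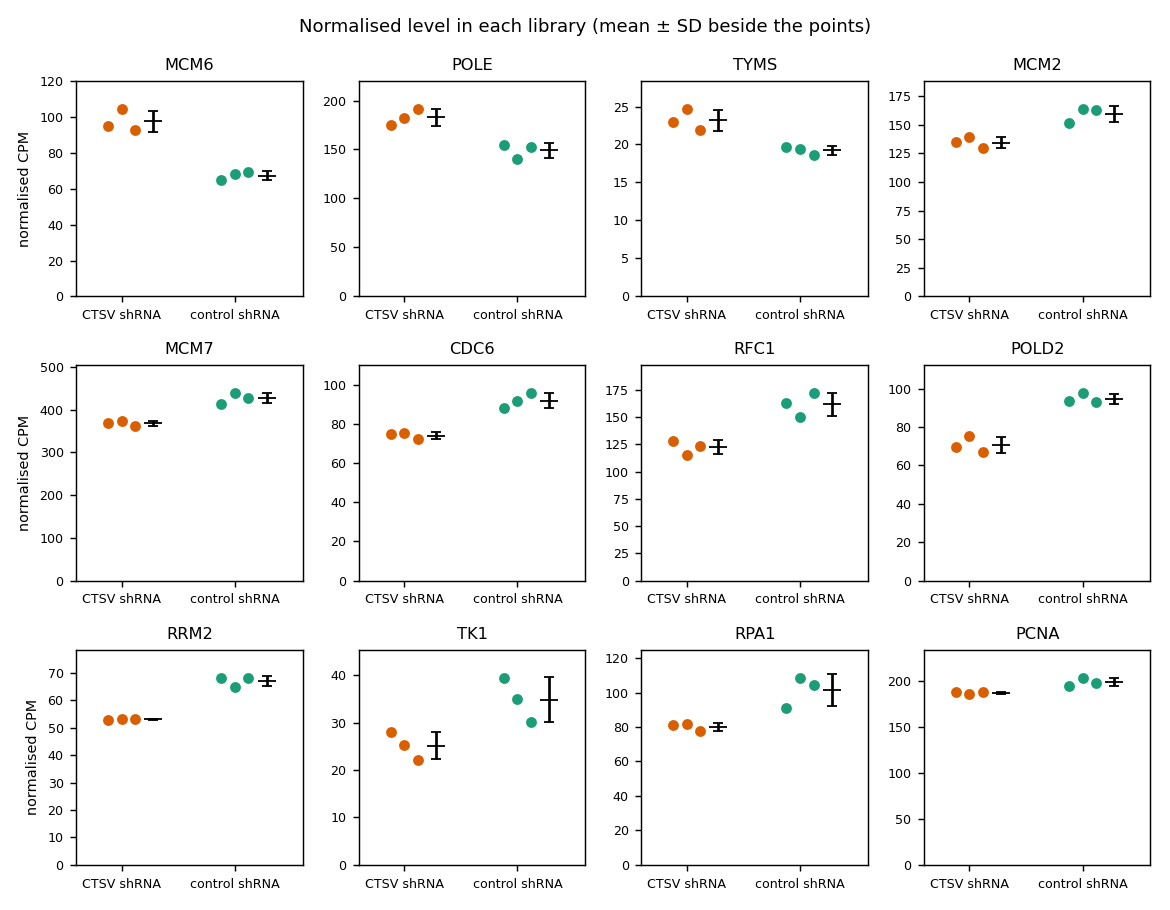
Normalised CPM (y axis, starting at 0) of 12 replication genes in each library, CTSV shRNA left of control, 1 point per library with mean ± SD beside. MCM6, POLE and TYMS lie higher in all 3 CTSV shRNA libraries; the others lie lower in all 3, and of these only PCNA was not called.

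The start-region letters, which the choice of genes did not use, were then set beside the calls. E2F letters stood upstream of 5 of the 6 that rose (MCM6, POLE, E2F2, TYMS and LIG1), of 4 of the 16 matched genes that fell, and of 5 of the 16 matched genes that were not called. CCAAT stood upstream of 3 of the 6 that rose, 10 of the 16 that fell and 9 of the 16 not called. These are counts over few genes, read after the calls were known, with no test. Of the rises with E2F letters, E2F2, TYMS and LIG1 lost their call in 6, 7 and 6 of the 14 alternative analyses. Of the falls with these letters, CDT1 lost its call in 5 and POLA1 in 1. The genes that rose had a median longest transcript of 3919 bases, those that fell 3249 and those not called 2915, against 3211 for all genes tested. With offsets for transcript length and GC content, 6 replication genes rose and 17 fell, with ORC6 and RFC2 no longer called.

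Other genes of the pathway gave a mixed count. Of 60 further replication genes on 4 lists, 16 fell, 8 rose and 36 were not called, so 26.7% fell and 13.3% rose. Over all genes tested 21.6% fell and 18.7% rose, and over those at 10 CPM or more 33.4% fell and 19.7% rose, so the further genes as a group lay near that background. Without control replicate 1 the calls were 15 in place of 24. The rises were 2 without control replicate 1, 5 without control replicate 2, 4 without CTSV shRNA replicate 2 and 4 without CTSV shRNA replicate 3. Among 15 licensing and firing genes, 2 fell and 2 rose. DBF4, the activating partner of the CDC7 kinase, fell by 0.64 (SE 0.0717), at 44.0 ± 1.72 CPM in CTSV shRNA and 68.4 ± 3.16 CPM in control libraries (SD, n = 3 each; edgeR adjusted p = 4.2e-09). The MCM-binding protein gene MCMBP fell by 0.30. CDC7 itself rose by 0.25 (edgeR adjusted p = 0.0135), a call lost without CTSV shRNA replicate 3 (0.0529) or control replicate 1 (0.147). Of 19 polymerase, clamp and fork genes, 6 fell and 2 rose: besides POLE3, the topoisomerase gene TOP1 fell by 0.39, and ATAD5, which unloads PCNA, rose by 0.43. Of 11 further nucleotide supply genes, 4 fell and 0 rose, among them the thymidylate kinase gene DTYMK (-0.34), the nucleoside diphosphate kinase gene NME1 (-0.65) and the deoxycytidine kinase gene DCK (-0.37). For NME1 the groups overlapped, at 13.6, 8.79 and 8.42 CPM in CTSV shRNA libraries against 13.0, 20.0 and 15.4 CPM in controls. On the E2F and RB list of 15 genes, which also held CDK2, CDC25A, SKP2 and FBXW7, 4 fell and 4 rose. The rises of E2F7, TFDP2 and SKP2 were lost in 5, 8 and 4 of the 14 alternative analyses. The falls of E2F3 and E2F4 were lost in 6 and 3. RBL2, the RB relative p130, rose by 0.31, and TFDP1, the dimer partner of the E2Fs, fell by 0.25. E2F6 fell by 0.27, a call lost without CTSV shRNA replicate 2 (edgeR adjusted p = 0.0538).

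Upstream and downstream of replication the changes differed in size. Among 11 tested genes for D-type cyclins, the kinases CDK4 and CDK6, and CDK inhibitors, 5 fell (45.5%) and 1 rose (9.09%). Over all genes tested, 21.6% fell and 18.7% rose, and 5 of the 11 had a mean under 10 CPM. CDKN2B, the CDK4/6 inhibitor p15, fell by 1.52 (31.0 ± 0.91 CPM in CTSV shRNA and 89.0 ± 3.90 CPM in control libraries), CCND1 by 0.88 and CDK4 by 0.67. The 1 that rose was CDK6 (0.38, SE 0.0741, edgeR adjusted p = 7.8e-05). Of 30 G2/M and mitosis genes, 18 fell (60.0%) and 1 rose, where 21.6% of all genes tested and 33.4% of those at 10 CPM or more fell. Among the falls, CCNB2 lost its call in 1 of the 14 alternative analyses, KIF11 in 4, CENPA in 7, UBE2C in 4 and HMMR in 2. TTK, not called here, was called in 1 of them. The mitosis genes had a median of -0.21 against -0.14 for the 45 replication genes. AURKA fell by 0.56, TPX2 by 0.40 and PTTG1 by 0.38. MKI67, the proliferation antigen Ki-67, was the 1 that rose (0.18), and it was not called without control replicate 2 (0.09, edgeR adjusted p = 0.0874) or with length and GC offsets (0.06, edgeR adjusted p = 0.175). The difference between the replication and mitosis lists was not tested.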

How the data were processed

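Per the labels, 3 CTSV shRNA and 3 control shRNA libraries of Huh7 cells were sequenced from TRIzol RNA with an NEBNext Ultra II mRNA kit. The values used are raw read counts per gene, deposited by the authors without normalization. The submitters' processing notes name HISAT2, SAMtools, StringTie and the build hg38. The counter, its strand setting and its handling of multiply mapped reads are not stated in these sources, and they could move genes that overlap others. In the authors' deposited table stand log2 fold changes as well (control over knockdown) with p-values; its adjusted p-values (under 0.05) call 2 of the 45 genes higher and 18 lower in knockdown, and its log2 values differ from those here by at most 0.0109 after the sign is turned.

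Copies of a name had equal values, so 1 entry per name was kept (1521 removed, 27394 left). The test was edgeR 4.0.16 in R 4.3.3 (quasi-likelihood, TMM, filterByExpr, no covariate, Benjamini-Hochberg over 15968 genes, called at an adjusted p under 0.05), checked on simulated data. There, 48% of 1.2-fold and 93% of 1.5-fold changes were recovered, among genes at 10 CPM or more. The simulation changed far fewer genes than were called here, so these shares may not carry over. A gene not called may thus still have changed by a small amount. CPM are TMM-normalised. SE is the absolute log2 fold change over the square root of the F statistic. TPM uses exon-union lengths from GENCODE release 29. DESeq2 1.42.0 and other alternatives are given in the closing section.

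The 45 genes and the other lists were chosen with earlier results of these data known. Values per library are given for the 6 largest rises, the 10 largest falls and the smallest adjusted p of each role; up to 3 called genes per other list are named. MCM2, MCM7, PCNA, POLE4, MKI67, CDK6, E2F5 and the genes that overlap a member were added after their values were seen.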

Additional observations from a re-analysis of the deposited data

How the results depend on the processing

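Of 630 values of the 45 genes under 14 alternatives, 564 kept their direction and side of the threshold, 46 called values were no longer called, 4 became called and 16 changed sign. The sign changes touch 6 uncalled genes and no called one: ORC2 (-0.0101 without a filter, -0.00276 with DESeq2, -0.0266 with length and GC offsets, -0.0268 with these and the replicate block, -0.0239 to 0.0344 with 1 library left out), PRIM1 (0.0429 with the offsets, 0.0423 with these and the replicate block, -0.0633 to 0.0402 with 1 library left out) and, with 1 library left out, GINS3 (-0.21 to 0.30), CCNE1 (-0.00352 to 0.15), CCNE2 (-0.26 to 0.0240) and POLE2 (-0.0334 to 0.19). The number of replication genes that rose was 6, but 2 without a filter, 2 with DESeq2 and 2 to 5 with 1 library left out; the number that fell lay between 15 and 19 in every alternative. For the 60 other replication genes, 8 rose, but 5 without a filter, 5 with DESeq2 and 2 to 8 with 1 library left out, and the sum of calls was 15 to 22 with 1 library left out. MKI67, the 1 mitosis gene that rose, was lost (0 called) with the offsets, with or without the replicate block, and with 1 library left out it was 0 to 1. The median of the 45 genes was -0.18 to -0.11 with 1 library left out, and the gain of MCM6 in the MCM2-7 level was 3.66 percentage points with exon-union lengths and 3.09 with longest transcripts. The alternative without mitochondrial genes, those on lengths and that on the summed share were chosen after seeing the data. In these the cause was not tested.

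Replicate numbers are shared between the groups, but deviations of same-numbered libraries correlated at only -0.0122, -0.00253 and 0.0212, so the numbers do not pair the libraries; with the replicate block 6 replication genes rose and 19 fell, as without it. The biological coefficient of variation was 6.87% with 3 libraries a group, and genes at a few CPM such as CCNE2 and GINS3 have SEs near 0.2. A call needs a difference well above 1 SE, so changes larger than 0.2 could also be missed there. For example, E2F5 at 0.34 (SE 0.145) was not called (edgeR adjusted p = 0.0593).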

Other observations

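Beside MCM6, the neighbouring gene LCT had more reads in the CTSV shRNA libraries. LCT encodes lactase, the milk-sugar hydrolase of the intestinal brush border, and introns of MCM6 are known to hold the enhancer that keeps it on in adults. It lies 2445 bases beyond MCM6, on the same strand, at 135787840 to 135837180 of chromosome 2 (hg38). Its counts were 16, 18 and 17 in CTSV shRNA libraries, against 2, 7 and 3 in controls, a log2 fold change of 2.03 (SE 0.624, edgeR adjusted p = 0.0085) that was not called without control replicate 1 (1.68, edgeR adjusted p = 0.0678). Other tested genes nearby, R3HDM1 (-0.13), UBXN4 (0.07) and DARS (-0.09), were not called. LCT was chosen after its values were seen, and whether reads run on from MCM6 into LCT was not tested.

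Inside MCM7, which fell, the table gives the microRNA gene MIR25 with 121, 138 and 138 counts in CTSV shRNA libraries and 77, 89 and 63 in controls. It rose by 0.77 (SE 0.191, edgeR adjusted p = 0.0013), and it shares no exon bases with MCM7. Also inside MCM7, MIR93 had 0, 0 and 5 counts in CTSV shRNA libraries and 0, 0 and 2 in controls. MIR106B had 0, 1 and 0 counts in CTSV shRNA libraries and 0, 0 and 1 in controls. Reads of a microRNA gene and of the intron around it cannot be told apart here. MIR25 was chosen after its values were seen.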
